A study of Mus musculus with 8 samples.

Results

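The genes described here are 8 heat shock protein genes (Hspa1a, Hspa1b, Hspa8, Hsph1, Hsp90aa1, Dnajb1, Hspb1 and Hspe1) and 2 genes of cold-inducible RNA-binding proteins (Cirbp and Rbm3), taken by name from the 52636 Ensembl genes counted in mouse lung. All 10 were found in the files, and all 10 were among the 20546 genes with enough counts to be tested. Total RNA of lung tissue from wild-type male C57BL/6 mice was sequenced from 4 groups with 2 libraries apiece (8 in all). For the COPD mice model, PPE (pancreatic elastase from pig) was put into the trachea at 10 weeks of age and LPS (lipopolysaccharide) was given from 12 weeks, while PBS took the place of both in the control animals. Either a control diet or one with 2% TJ-41 (hochuekkito, a Japanese herbal medicine) was fed from 8 weeks. These 4 groups are called control-fed PBS mice, TJ-41-fed PBS mice, control-fed COPD mice and TJ-41-fed COPD mice. The day and hour of lung collection for sequencing and the number of mice behind a library are not given in the sources used here. The p-values therefore measure the spread between libraries, which may be in part technical.

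Heat shock proteins are molecular chaperones that hold unfolded proteins, help them to fold and pass them on for degradation. The transcription factor HSF1 drives many of their genes when cells meet heat, oxidants or other stress, and it binds heat shock elements, which are runs of short GAA units in alternating orientation. Cirbp and Rbm3 encode RNA-binding proteins whose mRNA levels go up with mild cooling and go down with warming, and which follow the daily rhythm of body temperature. Lung tissue holds constitutive members such as Hspa8 at high levels, while Hspa1a and Hspa1b are the inducible members that respond most to stress and to the handling of tissue.

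The libraries held 18767295 to 20888042 counts. Levels are given as counts per 1000000 (CPM, with TMM scaling of the library totals), with factors of 0.935 to 1.02, and 3 counts corresponded to 0.153 to 0.162 CPM. The 8 lung epithelial and 6 lung endothelial marker genes were all among the tested genes, and the epithelial markers summed to 32300 to 66880 CPM in every library. The replicate libraries of control-fed COPD mice stood apart from each other. Their log2 difference had an SD of 0.80 over all genes tested, against 0.47 in control-fed PBS mice, 0.39 in TJ-41-fed PBS mice and 0.43 in TJ-41-fed COPD mice. In replicate 2 of control-fed COPD mice the epithelial markers summed to 66880 CPM against 32300 in replicate 1, the 5 smooth muscle markers to 729.6 against 370.5, and the 5 tested neutrophil markers to 62.4 against 212. Another neutrophil marker, Ly6g, was below the filter at 0.0541 to 1.02 CPM. Leaving out replicate 1 of this group raised the number of genes called for control-fed COPD mice from 25 to 1343, and leaving out replicate 2 raised it to 140.

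Compared per kilobase of exon, the 10 genes spanned a wide range of levels. The median over the 8 libraries was 70.6 CPM per kilobase for Hspa8, 57.5 for Hsp90aa1, 31.9 for Hspb1 and 20.8 for Cirbp. It was 15.8 for Dnajb1, 8.37 for Hsph1, 6.99 for Rbm3, 5.48 for Hspe1, 2.22 for Hspa1b and 1.33 for Hspa1a. The ranges of every pair of neighbours in this order overlapped. Hspa8 was above Hsp90aa1, Dnajb1 above Hsph1 and Hspa1b above Hspa1a in 8 of 8 libraries, but Cirbp was above Dnajb1, Hsph1 above Rbm3 and Hspe1 above Hspa1b in only 5 of 8. The spread between libraries also differed widely between the genes. The highest library held 16.1 times the CPM of the lowest for Hspa1a, 14.7 times for Hspa1b and 6.18 times for Hsph1, but 2.03 times for Hspa8, 1.99 times for Cirbp and 1.75 times for Rbm3.

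Hspa1a (chr17:34969190-34972156 on the minus strand of GRCm38, ENSMUSG00000091971) and Hspa1b (chr17:34956436-34959238, minus strand, ENSMUSG00000090877) encode the stress-inducible HSP70 chaperones and lie in tandem, with 9951 bases between them. Of the 50-base stretches in the annotated transcripts, 58.8% of those of Hspa1a occurred also in Hspa1b, and how reads that fit both genes were counted is not stated, so the split between the 2 genes is uncertain. Their promoters are nearly copies of each other. In the RefSeq windows from 250 bases before to 50 bases after the start site (GRCm38.p6), 296 of 300 bases were the same. The windows of both genes are shown because the 2 genes varied together, that of Hsph1 because its spread between libraries was the next largest, and that of Cirbp as a gene of the opposite temperature response. Capitals mark the letters TTCNNGAA and GAANNTTC, which join 2 units of a heat shock element in either order, read the same on both strands and may share their outer 3 letters. The windows, 5′ to 3′, are chr17:34972107-34972406 (minus strand) for Hspa1a, chr17:34959189-34959488 (minus) for Hspa1b, chr5:149636287-149636586 (minus) for Hsph1 and chr10:80167589-80167888 (plus) for Cirbp.
Hspa1a: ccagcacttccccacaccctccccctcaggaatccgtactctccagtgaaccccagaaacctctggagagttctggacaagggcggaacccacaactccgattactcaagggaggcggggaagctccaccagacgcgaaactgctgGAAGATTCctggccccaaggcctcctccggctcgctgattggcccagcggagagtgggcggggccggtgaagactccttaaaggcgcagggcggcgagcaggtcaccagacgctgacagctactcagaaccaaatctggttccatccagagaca
Hspa1b: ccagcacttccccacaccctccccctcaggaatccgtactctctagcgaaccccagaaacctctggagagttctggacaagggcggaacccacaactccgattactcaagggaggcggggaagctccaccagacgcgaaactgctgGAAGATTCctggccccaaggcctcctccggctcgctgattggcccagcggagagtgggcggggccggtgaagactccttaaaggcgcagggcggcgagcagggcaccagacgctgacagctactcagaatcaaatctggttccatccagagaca
Hsph1: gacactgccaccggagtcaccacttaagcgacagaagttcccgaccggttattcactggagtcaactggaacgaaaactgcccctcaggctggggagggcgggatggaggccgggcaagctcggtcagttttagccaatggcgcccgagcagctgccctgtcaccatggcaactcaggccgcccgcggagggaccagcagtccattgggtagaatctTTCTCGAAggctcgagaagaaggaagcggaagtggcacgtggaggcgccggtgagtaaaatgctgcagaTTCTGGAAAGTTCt
Cirbp: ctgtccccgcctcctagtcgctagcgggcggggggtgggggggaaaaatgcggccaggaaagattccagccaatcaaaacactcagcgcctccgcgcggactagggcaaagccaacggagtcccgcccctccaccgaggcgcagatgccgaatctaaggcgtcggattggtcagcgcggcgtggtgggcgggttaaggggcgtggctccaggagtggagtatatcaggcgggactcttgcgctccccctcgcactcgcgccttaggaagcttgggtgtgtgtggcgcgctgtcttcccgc
Windows were given for 7 of the 10 genes, with a second window for Hsph1, Dnajb1 and Cirbp. Hspa1a and Hspa1b held 1 match each, at position -104 from the start site, and Hsph1 held 3 matches. Hspb1 held 2 matches and Hspe1 held 3, while neither window of Dnajb1 or Cirbp held any. Of the 10 windows of these 7 genes 6 held a match, where 15.1% of all 32851 windows had one and 1.96% had 2 or more. These 6 are not separate sequences. The windows of Hspa1a and Hspa1b are nearly the same, and the 2 windows of Hsph1 overlap and hold the same 3 matches. TTCNNGAA was in 8.52% of all windows and GAANNTTC in 7.86%. A match is only a string of letters, and binding was not measured.

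Hspa1b was at 5.07 and 15.9 CPM in replicates 1 and 2 of control-fed PBS mice, at 3.64 and 53.3 CPM in TJ-41-fed PBS mice, at 3.91 and 49.9 CPM in control-fed COPD mice, and at 4.96 and 7.36 CPM in TJ-41-fed COPD mice. Replicate 2 was the higher library in each group, and 2 libraries, replicate 2 of TJ-41-fed PBS mice and replicate 2 of control-fed COPD mice, were far above the other 6. These 2 libraries differ in both treatment and diet. Hspa1a was at 3.19 and 8.93, 2.46 and 36.9, 2.29 and 31.1, and 3.65 and 4.24 CPM in the same order of groups. The same 2 libraries were the highest, and the count of Hspa1a was 0.562 to 0.737 times that of Hspa1b in every library. Summed over both genes, which leaves the uncertain split aside, the levels were 8.26 and 24.8, 6.10 and 90.2, 6.21 and 81.1, and 8.61 and 11.6 CPM.

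**Figure D1:**
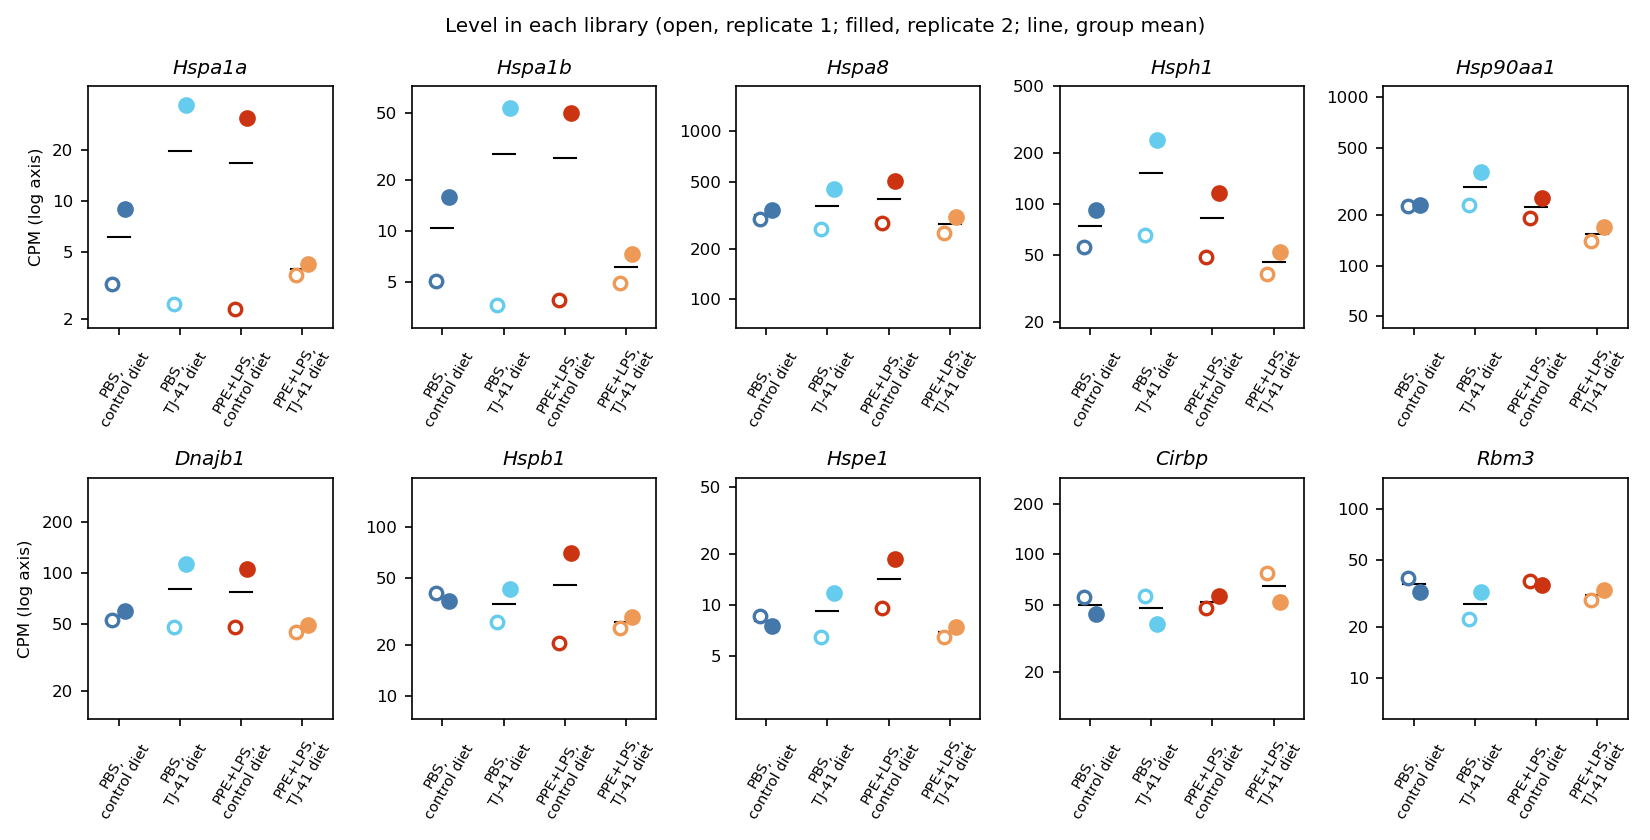
Level of each of the 10 genes in CPM (log axis, the same span of fold in every panel) in the 8 libraries, by group; open circles are replicate 1, filled circles replicate 2 and lines the mean of the 2 libraries. For Hspa1a and Hspa1b the filled circles of TJ-41-fed PBS mice and of control-fed COPD mice lie at 31.1 to 53.3 CPM, above all other libraries, while Cirbp and Rbm3 stay within 1.99-fold and 1.75-fold over the 8 libraries.

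Within TJ-41-fed PBS mice, replicate 2 held 14.7 times the Hspa1b level of replicate 1 (95% interval from exact binomial limits on the 2 counts, which covers counting error only, 11.5 to 18.9). Within control-fed COPD mice the ratio was 12.8 (10.1 to 16.4), in control-fed PBS mice 3.13 (2.48 to 3.98), and in TJ-41-fed COPD mice 1.49 (1.14 to 1.95). For Hspa1a the ratios were 15.02, 13.6, 2.80 and 1.16. In the first 2 of these groups both genes were at or above the 99.9th percentile of the absolute replicate difference of all genes tested. The biological coefficient of variation, which is the spread between libraries beyond counting, was 0.767 for Hspa1a and 0.766 for Hspa1b, against 0.208 for all genes in common. This placed both at the 99.9th percentile of the genes tested. In whole lung tissue more cells that carry a transcript and more transcript per cell cannot be told apart.

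Hsph1 (chr5:149614287-149636376, minus strand) encodes HSP110, a nucleotide exchange factor for HSP70. It was at 56.0 and 92.7 CPM in control-fed PBS mice, 65.7 and 239.9 on the TJ-41 diet, 48.7 and 116 in control-fed COPD mice, and 38.8 and 51.7 on the TJ-41 diet. The highest 2 libraries were those with the most Hspa1a and Hspa1b, and replicate 2 exceeded replicate 1 by 1.66, 3.65, 2.39 and 1.33 times in the same order. Dnajb1 (chr8:83608193-83612653, plus strand) encodes HSP40, the J protein that delivers clients to HSP70. Its levels were 52.4 and 59.3, 48.2 and 112.5, 48.1 and 105.8, and 44.6 and 49.0 CPM. Again the same 2 libraries were apart, by 2.34 and 2.20 times their partners, and the other 6 lay between 44.6 and 59.3 CPM.

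Hspa8 (chr9:40800984-40810087, plus strand), the constitutive HSC70 chaperone, was at 299 and 337, 263 and 452.5, 284 and 504.3, and 248.5 and 308 CPM. The same 2 libraries were again the highest, at 1.72 and 1.77 times their partners. Some 39.4% of its 50-base stretches occurred in other genes, and the processed pseudogene Gm8355, which shares 22.7% of them, held 3531 to 6855 counts in each library. Hsp90aa1 (chr12:110690605-110702728, minus strand), the stress-inducible HSP90, was at 225 and 227, 229 and 357, 191 and 251.5, and 139 and 170 CPM. Both libraries of TJ-41-fed COPD mice were below all others. The pseudogene Gm12346 shares 41.8% of its stretches and held 3436 to 9465 counts. Summed over Hsp90aa1 and 3 pseudogenes, the levels were 638.5 and 676.5, 658.7 and 1066, 514 and 607.3, and 400.5 and 491.6 CPM. For this sum every library of COPD mice was below every library of PBS mice. Between the diets the sum overlapped in PBS mice and was lower with TJ-41 in COPD mice.

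Hspb1 (chr5:135887919-135889563, plus strand) encodes the small heat shock protein HSP25, which binds unfolding proteins without using ATP. It was at 40.9 and 36.4, 27.3 and 42.9, 20.5 and 69.7, and 25.4 and 29.3 CPM. Replicate 2 of control-fed COPD mice was the highest library and replicate 1 of the same group the lowest, 3.40 times apart. Hspe1 (chr1:55088132-55091307, plus strand) encodes HSP10, the lid of the mitochondrial chaperonin, and 112 of its exon bases overlap Hspd1, the gene of HSP60, on the opposite strand. Whether the counting used strand is not given, so reads of the 2 genes there cannot be told apart. It was at 8.63 and 7.53, 6.45 and 11.8, 9.65 and 18.7, and 6.42 and 7.41 CPM. The highest libraries were again replicate 2 of control-fed COPD mice and of TJ-41-fed PBS mice. Hspb1 shares 48.8% of its stretches with the pseudogene Hsp25-ps1, which held 60 to 259 counts.

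Cirbp (chr10:80165985-80172786, plus strand) was at 55.8 and 44.7, 57.0 and 38.9, 48.0 and 56.7, and 77.6 and 52.5 CPM. Replicate 2 of TJ-41-fed PBS mice, the library with the most Hspa1b, was the lowest in Cirbp, at 0.683 times its partner (95% interval 0.621 to 0.751), but replicate 2 of control-fed COPD mice was at 1.18 times its partner (1.08 to 1.29). In TJ-41-fed COPD mice, where Hspa1b differed least between the libraries, Cirbp was at 0.676 times its partner (0.624 to 0.733), and replicate 1 of this group held the highest Cirbp level of all. The Cirbp ratios thus did not follow the order of the Hspa1b ratios over the 4 groups. Rbm3 (chrX:8138975-8145880, minus strand) was at 39.3 and 32.5, 22.4 and 32.3, 37.8 and 35.4, and 28.9 and 33.2 CPM. It was lowest in replicate 1 of TJ-41-fed PBS mice. Its libraries on the TJ-41 diet lay below those on the control diet in each treatment, though in PBS mice only by 32.3 against 32.5 CPM at the closest. The count of Rbm3 is uncertain, since 3 processed pseudogenes, Rbm3-ps, Gm10156 and Gm48583, share 6.27%, 5.08% and 3.4% of its 50-base stretches, and Rbm3-ps alone held 1097 to 2482 counts in a library against 438 to 752 for Rbm3. Summed over Rbm3 and these pseudogenes, the levels were 163 and 140.2, 137 and 118.9, 219 and 181, and 197 and 189.7 CPM in the order of groups above. For this sum, unlike for Rbm3 itself, all 4 libraries of COPD mice were above all 4 of PBS mice. Between the diets the sum was lower with TJ-41 in PBS mice but overlapped in COPD mice. Replicate 2 was below replicate 1 for both genes in control-fed PBS mice, at 0.8 for Cirbp and 0.825 for Rbm3. Neither gene stood out in its biological coefficient of variation. The values were 0.189 and 0.167, at the 43.5th and 29.6th percentile of all genes tested. In absolute replicate difference Cirbp was at the 88.4th percentile in TJ-41-fed PBS mice and the 88.8th in TJ-41-fed COPD mice. Rbm3 was at the 87.3rd in TJ-41-fed PBS mice, and both genes were lower in the remaining groups.

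**Figure D2:**
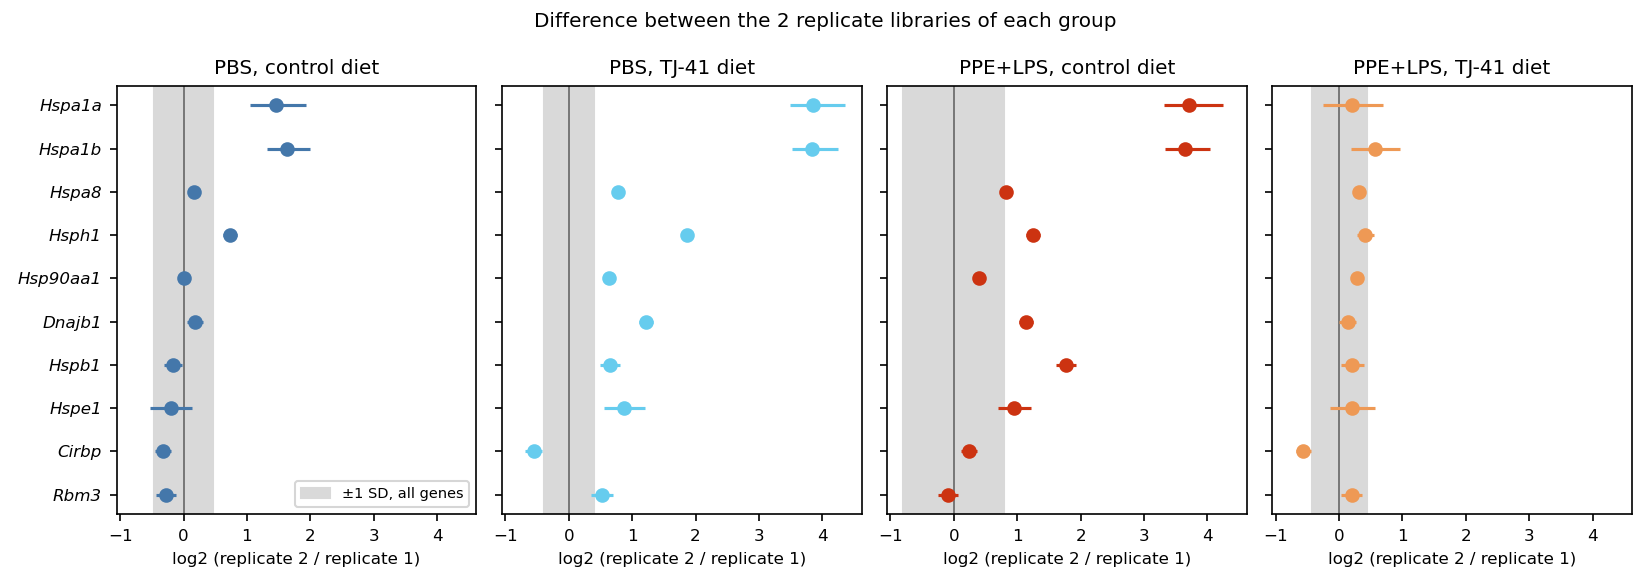
Log2 ratio of replicate 2 to replicate 1 for the 10 genes in each group, with 95% intervals for counting error (lines) and 1 SD of the same difference over all genes tested (grey band). In TJ-41-fed PBS mice and in control-fed COPD mice Hspa1a and Hspa1b lie at 3.64 to 3.85, and 9 of the 10 genes are above 0 in each of these panels.

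Across the 10 genes, replicate 2 was higher for 6 genes in control-fed PBS mice and for 9 in each other group. The median log2 difference was 0.09, 0.82, 1.04 and 0.21 in the order of groups above, where the median of all genes tested was between -0.01 and 0.03. In control-fed COPD mice this difference is to be read beside the SD of 0.80 over all genes, since Hspa8 there was only at the 75.4th percentile and Hsp90aa1 at the 43.2nd percentile of the absolute differences. In TJ-41-fed PBS mice, where the SD was 0.39, Hspa8 was at the 94.6th, Hsp90aa1 at the 91.5th, Dnajb1 at the 98.5th and Hsph1 at the 99.7th percentile.

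The first comparison asked which of these genes differed between control-fed COPD mice and control-fed PBS mice. None of the 10 was called (edgeR's quasi-likelihood test over all 20546 genes, false discovery rate under 0.05 and log2 fold change beyond 1), where 0.122% of all genes tested were called. Their log2 fold changes had a median of 0.27, against 0.01 for all genes, and 9 of 10 were above 0. Hspe1 was the only one whose libraries did not overlap between the groups, with both libraries of COPD mice higher, where 27.6% of all genes did not overlap. Its log2 fold change was 0.81 ± 0.37 (SE, n = 2 libraries per group, adjusted p = 0.664 in edgeR's quasi-likelihood test). Without replicate 1 of control-fed COPD mice it was 1.20, and without replicate 2 it was 0.26. For Hspa1b the log2 fold change of 1.36 ± 1.21 turned to -1.42 without replicate 2 of this group and was 2.25 without replicate 1. At an unadjusted p under 0.05 there were 0 of the 10 genes in edgeR, where 7.70% of all genes passed, and 1 in DESeq2, which called none of the 10. Also above 0 in this comparison were 12 of 12 immediate early genes (median 0.74), 6 of 7 heart muscle markers (0.46) and 5 of 5 red cell markers (0.52). So were 5 of 5 T cell markers (0.50) and 6 of 6 tested other small heat shock proteins (0.30). Below 0 were 5 of 5 tested neutrophil markers (-0.40).

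On the TJ-41 diet most of the 10 genes were on the other side of 0, but not Cirbp, Rbm3 and Hsp90aa1, which had the sign they had on the control diet. None of the 10 genes was called, where 0.0779% of all genes were, but 8 of 10 log2 fold changes of COPD mice against PBS mice were below 0, with a median of -0.59. Hsph1 and Hsp90aa1 did not overlap and were lower in COPD mice, where 56.5% of all genes did not overlap. Hsp90aa1 had a log2 fold change of -0.92 ± 0.24 (SE, n = 2 libraries per group, unadjusted p = 0.00395, adjusted p = 0.438 in edgeR's quasi-likelihood test). It passed the false discovery rate, but not the fold threshold, in DESeq2 (-0.92, adjusted p = 0.0425), where 149 of 18554 genes passed it. The same held in edgeR fitted to the 2 groups alone (adjusted p = 0.0395), where 716 of 19809 genes passed. Without replicate 2 of TJ-41-fed PBS mice its log2 fold change was -0.57. Hsph1 had -1.75 ± 0.58 (adjusted p = 0.613 in edgeR), which was -0.54 without that library. The inducible genes Hspa1a and Hspa1b had -2.32 ± 1.25 and -2.21 ± 1.25 (adjusted p = 0.776 and 0.779 in edgeR), and turned to 0.68 and 0.76 without that library. At an unadjusted p under 0.05 there were 2 of the 10 in edgeR, Hsp90aa1 and Hsph1, where 6.56% of all genes passed, and 3 in DESeq2, which called none. The 2 genes whose log2 fold changes were above 0 were the RNA-binding genes, with 0.44 ± 0.25 for Cirbp and 0.18 ± 0.21 for Rbm3 (adjusted p = 0.779 and 0.823 in edgeR). Of other lists, 9 of 12 immediate early genes (median -0.20), 7 of 7 heart muscle markers (-0.54) and 5 of 5 smooth muscle markers (-0.28) were below 0 on this diet. Above 0 were 5 of 5 tested neutrophil markers (0.17) and 6 of 7 macrophage markers (0.52).

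Averaged over both diets, none of the 10 genes was called for COPD mice, where 0.443% of all genes were, and no gene of the 10 separated the 4 libraries of COPD mice from the 4 of PBS mice, where 6.78% of all genes did. Hsp90aa1 again had the smallest p, with a log2 fold change of -0.48 ± 0.17 (SE, n = 4 libraries per side, unadjusted p = 0.0201, adjusted p = 0.358 in edgeR's quasi-likelihood test). It was the only one of the 10 with an unadjusted p under 0.05 in edgeR, where 10.4% of all genes passed. DESeq2 also had 1 of the 10 and called none. Hspa1a and Hspa1b had -0.43 ± 0.85 and -0.42 ± 0.85. Intervals of 95% for these 2 genes ran from -2.35 to 1.5 and from -2.34 to 1.5, so that neither a difference of 2-fold (1 on the log2 scale) in either direction nor its absence could be read from these libraries. For Cirbp the interval was -0.15 to 0.65 and for the reads assigned to Rbm3 -0.23 to 0.44, both within 2-fold. The Rbm3 value depends on how reads were split, because its pseudogenes Rbm3-ps, Gm10156 and Gm48583 were higher in COPD mice without overlap, with 0.59 ± 0.15, 0.66 ± 0.15 and 0.57 ± 0.13 (adjusted p = 0.18, 0.128 and 0.126 in edgeR, none called). Likewise Gm12346 and Gm5844, pseudogenes of Hsp90aa1, were lower without overlap, with -0.68 ± 0.18 and -0.60 ± 0.16 (adjusted p = 0.181 and 0.188 in edgeR, none called). Summed with its pseudogenes, Hsp90aa1 was at 400.5 to 607.3 CPM in COPD mice and at 638.5 to 1066 CPM in PBS mice, without overlap.

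The TJ-41 diet was then compared with the control diet. These comparisons share libraries with those above, so their values are not independent. In PBS mice 0% of all genes tested were called and none of the 10 genes, and at an unadjusted p under 0.05 there were 336 genes (1.64%) but none of the 10 in edgeR. DESeq2 called 10 genes, none of them among the 10 described here. Hspa1b had a log2 fold change of 1.44 ± 1.21 and Hspa1a 1.70 ± 1.22 (adjusted p = 0.996 for both in edgeR), which became -1.52 and -1.30 once replicate 2 of TJ-41-fed PBS mice was left out. Of the 10 log2 fold changes 7 were above 0, with a median of 0.28 against -0.002 for all genes. Among other lists 5 of 5 red cell markers (median -0.51) and 6 of 7 macrophage markers (-0.36) were below 0, and 7 of 12 immediate early genes (0.098) above it. Hsp90aa1 was higher (at the closest 229 against 227 CPM) and Rbm3 lower (32.3 against 32.5 CPM) without overlap, where 38.2% of all genes did not overlap. Their log2 fold changes were 0.38 ± 0.24 and -0.39 ± 0.21 (SE, n = 2 libraries per group, adjusted p = 0.996 for both in edgeR).

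In COPD mice 9 of the 10 log2 fold changes of the TJ-41 diet were below 0, with a median of -0.72 against -0.02 for all genes, and Cirbp, at 0.32 ± 0.25, was the exception. None of the 10 genes was called, where 0.00487% of all genes were. DESeq2 called none of the 10 either. Hsp90aa1, Hspe1 and Rbm3 were lower without overlap, where 29.0% of all genes did not overlap. For Rbm3 summed with its pseudogenes the libraries overlapped. Hspe1 had -1.03 ± 0.37 (SE, n = 2 libraries per group, unadjusted p = 0.0214, adjusted p = 0.991 in edgeR's quasi-likelihood test), Hsp90aa1 -0.52 ± 0.24 and Rbm3 -0.24 ± 0.21. Hspe1 was the only one of the 10 at an unadjusted p under 0.05 in edgeR, where 4.10% of all genes were, and in DESeq2 there were 2. Without replicate 1 of control-fed COPD mice, Hspe1 was called at -1.43 and Hspb1 at -1.35 (adjusted p = 0.0272 and 0.0136 in edgeR), and 728 of all genes were called with them. Without replicate 2 the same 2 genes were at -0.48 and 0.41. Other lists differed in the same comparison. Below 0 were 11 of 12 immediate early genes (median -0.68), 7 of 7 heart muscle markers (-1.05), 5 of 5 red cell markers (-1.23) and 5 of 5 smooth muscle markers (-0.49), and above 0 were 5 of 5 neutrophil markers (0.82). The part of these cells and of handling in the values of the 10 genes was not tested. In the fits that left out 1 library of a group, the lone library was taken to vary as the other groups did.

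**Figure D3:**
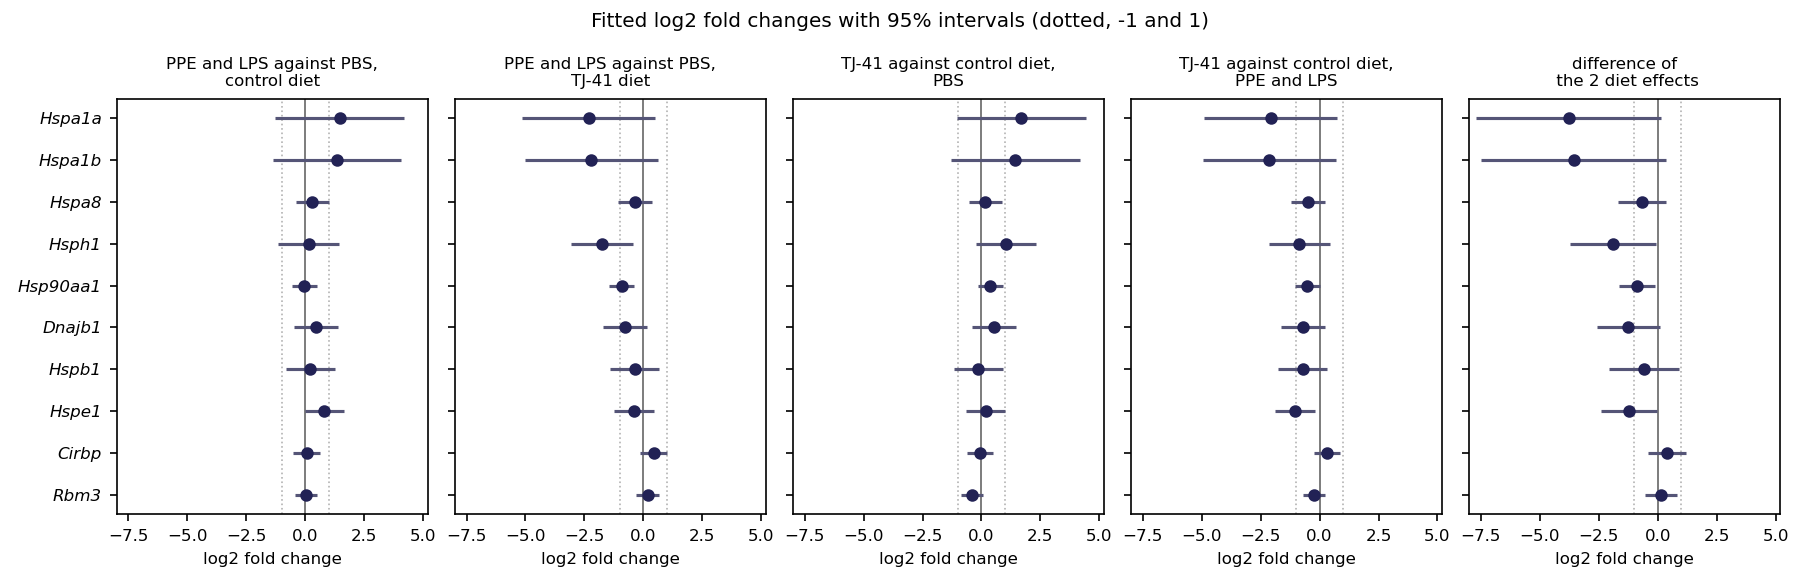
Fitted log2 fold changes (points) of the 10 genes with 95% intervals (lines) in the comparisons of treatment, of diet and of the 2 diet effects; dotted lines mark -1 and 1. The intervals of Hspa1a and Hspa1b cross 0 in every panel and are the widest, and no gene was called in any panel.

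The difference between the diet effect in COPD mice and that in PBS mice was below 0 for 8 of 10 genes, with a median of -1.05 against -0.01 for all genes. Here too 0% of all genes and none of the 10 were called, with 672 of all genes (3.27%) at an unadjusted p under 0.05 in edgeR, and DESeq2 called 17 genes but none of the 10. Hsp90aa1 had -0.89 ± 0.34 (unadjusted p = 0.0269, adjusted p = 0.999 in edgeR's quasi-likelihood test). Both its TJ-41 libraries were above the control diet in PBS mice, at the closest 229 against 227 CPM, and below it in COPD mice. Summed with its pseudogenes, it overlapped between the diets in PBS mice. Hsph1 had -1.90 ± 0.81 and Hspe1 -1.21 ± 0.53 (adjusted p = 0.999 for both in edgeR), and these 3 genes had an unadjusted p under 0.05 in edgeR. DESeq2 also had 3 of the 10, which need not be the same genes. Hspa1a and Hspa1b had the largest values, -3.78 ± 1.74 and -3.57 ± 1.74. These shrank to -0.76 and -0.58 without replicate 2 of TJ-41-fed PBS mice, and to -0.89 and -0.76 without replicate 2 of control-fed COPD mice. With each library left out in turn, they ran from -4.68 to -0.76 and from -4.58 to -0.58. Other lists were below 0 here as well, with 11 of 12 immediate early genes (median -0.96), 7 of 7 heart muscle markers (-1.18), 5 of 5 red cell markers (-0.72) and 5 of 5 smooth muscle markers (-0.39), while 5 of 5 neutrophil markers were above 0 (0.58).

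Other genes of the chaperone system were taken from lists by role. In none of the 6 comparisons did a gene pass the false discovery rate in edgeR among the 4 tested genes of heat shock factors, the 11 other HSP70 and HSP110 genes, the 10 HSP70 nucleotide exchange and E3 cochaperones, the 15 other J proteins or the 12 other HSP90 genes and cochaperones. The same held for the 6 tested other small heat shock proteins, the 9 mitochondrial chaperones and proteases, the 8 subunits of the TRiC chaperonin, the 15 genes of the ER stress response and the 18 other RNA-binding genes that respond to temperature. Together the lists held 99 tested genes, some of them in more than 1 list. Of these genes, 5, 14, 7, 0, 3 and 2 had an unadjusted p under 0.05 in edgeR in the order of the comparisons above, and 2 passed the false discovery rate in DESeq2, both for COPD mice over both diets. These were Fkbp5, an HSP90 cochaperone induced by glucocorticoids, and Herpud1, an ER stress gene, both higher in COPD mice and under the fold threshold. Of all genes tested, 7.70%, 6.56%, 10.4%, 1.64%, 4.10% and 3.27% had an unadjusted p under 0.05 in edgeR in the same order. Only for COPD mice on the TJ-41 diet, with 14 of 99, was the share of these genes above that of all genes.

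These lists were also compared between replicates, as a description, for the 2 groups whose replicate 2 held the most Hspa1b. In replicate 2 of TJ-41-fed PBS mice 14 of 15 other J proteins, 10 of 12 other HSP90 genes and cochaperones, 7 of 8 TRiC subunits and 16 of 18 other RNA-binding genes were above replicate 1, with median log2 differences of 0.19, 0.18, 0.24 and 0.25, but only 2 of 6 other small heat shock proteins were. In replicate 2 of control-fed COPD mice all 6 other small heat shock proteins were above replicate 1 (median 0.81), as were 8 of 12 other HSP90 genes and cochaperones (0.36), 7 of 8 TRiC subunits (0.21), 10 of 15 other J proteins (0.21) and 6 of 18 other RNA-binding genes (-0.20). Of all genes tested, 49.0% and 51.4% were higher in replicate 2 of these groups. Also above replicate 1 in control-fed COPD mice were 8 of 9 mitochondrial chaperones and proteases (0.34) and 8 of 10 HSP70 cochaperones (0.41). In TJ-41-fed COPD mice, where Hspa1b differed least, 7 of 8 TRiC subunits (0.063), 9 of 12 other HSP90 genes and cochaperones (0.165) and 7 of 15 other J proteins (-0.015) were above replicate 1. Dnaja1, another J protein, and Ptges3, the HSP90 cochaperone p23, were picked after their values were seen. Dnaja1 was at 137 against 54.7 CPM and at 111 against 61.2 CPM in the 2 pairs, and at 49.3 to 74.0 CPM in the other 6 libraries. Ptges3 was at 107.6 against 45.6 CPM and at 96.0 against 51.3 CPM. Hsf1, which encodes the factor itself, differed less, with 31.2 against 29.0 CPM and 40.5 against 27.0 CPM.

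**Figure D4:**
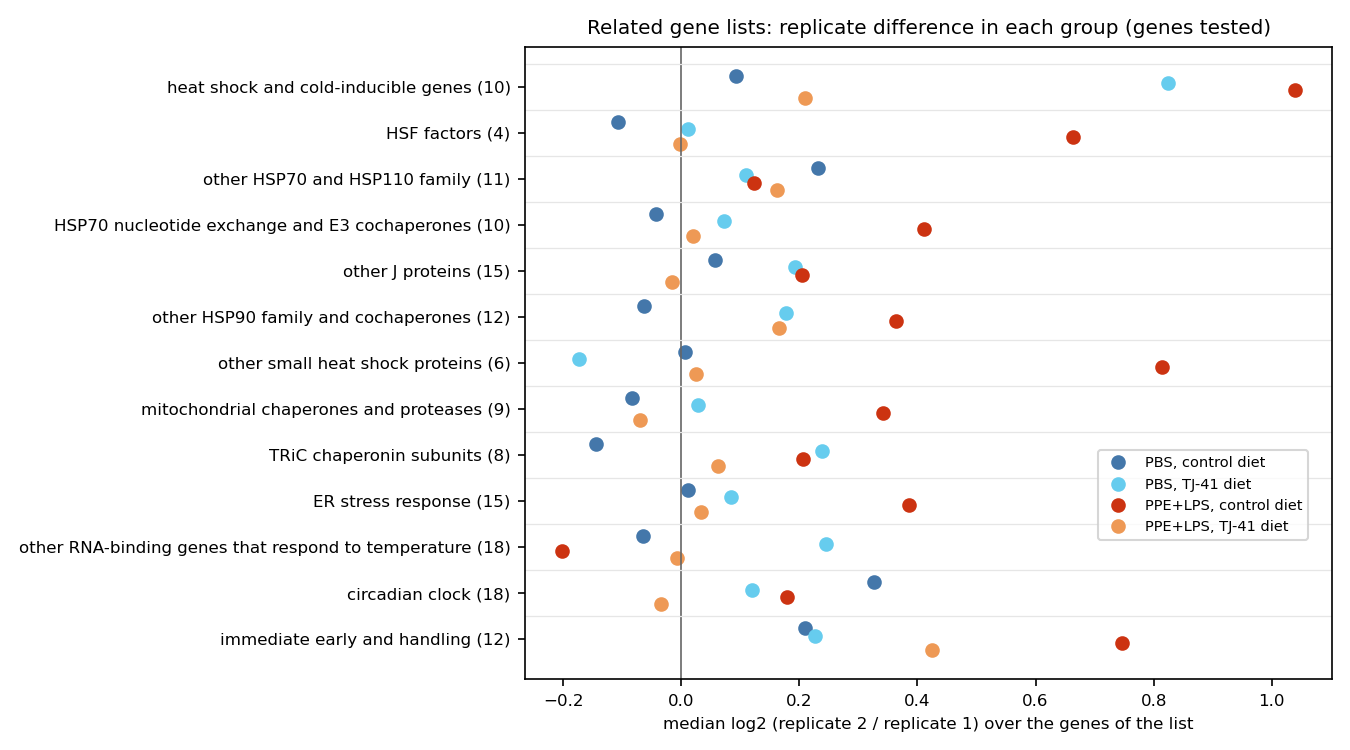
Median log2 ratio of replicate 2 to replicate 1 over the tested genes of each list (number in brackets) in the 4 groups. The 10 heat shock and cold-inducible genes lie at 0.82 in TJ-41-fed PBS mice and 1.04 in control-fed COPD mice, while the other small heat shock proteins are at 0.81 in the latter and -0.17 in the former.

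Immediate early genes respond within minutes to stress and handling. Replicate 2 was above replicate 1 for 8 of 12 of these genes in TJ-41-fed PBS mice (summed level 1071 against 911 CPM), for 12 of 12 in control-fed COPD mice (1699 against 1119 CPM), and for 11 of 12 both in control-fed PBS mice (953 against 818 CPM) and in TJ-41-fed COPD mice (1056 against 728 CPM). None of the 12 was at 0. In this last group Hspa1b differed least, at 7.36 against 4.96 CPM. The part of handling in the levels of Hspa1a and Hspa1b was not tested.

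Of the circadian clock list 18 genes were tested, and 6 were called higher and 2 lower in control-fed COPD mice, likewise 6 and 2 on the TJ-41 diet, and 9 and 3 over both diets. By smallest p these were Dbp, Bhlhe41, Hlf, Per3 and Tef, all of them transcription factors or repressors of the clock and its output. Dbp was at 8.76 to 21.3 CPM in PBS mice and at 185 to 200 CPM in COPD mice, a log2 fold change of 3.89 ± 0.14 over both diets (adjusted p = 9.10e-06 in edgeR's quasi-likelihood test). Bhlhe41, Hlf, Per3 and Tef had 2.27, 2.03, 2.03 and 1.72. Cirbp and Rbm3, which follow the daily cycle of temperature, had 0.25 ± 0.18 and 0.11 ± 0.15 in the same comparison (adjusted p = 0.648 and 0.802 in edgeR), the latter without the reads of its pseudogenes, which were higher in COPD mice as given above. The part of the hour of collection in any of these values was not tested. Of the 11 marker lists for cell types only Jchain, which joins antibody chains in plasma cells, passed the false discovery rate, in control-fed COPD mice (log2 fold change 3.63 against control-fed PBS mice) and over both diets (2.64).

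The genes most like Hspa1b across the 8 libraries, out of 11873 genes averaging 10 CPM or more, were Hspa1a (Pearson r = 0.996 of log2 CPM), Gm8355 (0.983), Yap1 (0.980), Dnajb1 (0.960) and Hspa8 (0.959). These values describe 8 libraries and rest in part on the 2 highest, since without those they were 0.985, 0.903, 0.884, 0.794 and 0.797. Yap1, a coactivator of the Hippo pathway, ranged from 119 to 158 CPM only. The genes most like Cirbp were Vps72 (0.996), Nprl3 (0.992), Taz (the tafazzin gene, ENSMUSG00000009995, 0.974), Iqcc (0.959) and Strada (0.938). Without the 2 libraries farthest from the median in Cirbp they were at 0.986, 0.960, 0.844, 0.777 and 0.718. All of these genes were picked as the highest of 11873, and Gm8355 shares sequence with Hspa8.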

How the data were processed

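Lung RNA-seq of 8 mouse libraries, 2 in each of 4 groups, was analysed from the gene count tables as deposited by the authors, which hold raw whole-number read counts per Ensembl gene, not normalized. The submitters' processing notes name HISAT2, the mm10 build and edgeR without versions, and the study's methods name CLC Genomics Workbench for the reads. The counter, the annotation release, the use of strand and the treatment of reads that fit several genes are not given in the sources used here. Symbols, exon lengths and overlaps came from the GENCODE M21 annotation of GRCm38, which held 52489 of the 52636 gene IDs. All 8 libraries entered 1 fit in edgeR 4.0.16 (R 4.3.3) with a mean per group, TMM factors, filterByExpr (minimum count 10, minimum total count 15) and the quasi-likelihood test, with 4 residual degrees of freedom. P-values were adjusted (Benjamini-Hochberg) over the 20546 genes tested. A call needed a log2 fold change past 1 in either direction besides a false discovery rate under 0.05. COPD mice were compared with PBS mice on each diet and over both, the TJ-41 diet with the control diet in each treatment, and the 2 diet effects with each other (6 comparisons). All 10 genes are described in every comparison, and genes outside them were named where they passed the false discovery rate in a list (the 5 with the smallest p) or were among the 5 most like Hspa1b or Cirbp, apart from pseudogenes that share sequence with the 10 genes and those said to be picked after their values were seen. The 10 genes and the lists were chosen with earlier results of these data known. Intervals on ratios of 2 counts are exact binomial and, like the 3-count floor, cover counting error only. Alternatives were RLE factors, library size alone, 2 other filters, DESeq2 1.42.0, a replicate block, a loess (span 0.5) for GC content and length, the compared groups alone, no fold threshold and each library left out. Same-numbered replicates were checked for pairing by the correlation of their differences, which was -0.234 to 0.108, so the numbers were not taken as pairs. Replicate tables differed by far more than sampling noise in every group (variance over counting 11.5 to 85.1).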

Additional observations from a re-analysis of the deposited data

How the results depend on the processing

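Of 940 alternative log2 fold changes of the 10 genes, 885 kept their direction and their side of the call, 52 turned direction and 3 became calls. Leaving out 1 library gave 47 of the 52, over 34 of 60 gene-by-comparison results. The number of the 10 genes called stayed at 0 under each other alternative. It changed only with 1 library left out, for COPD mice on the control diet and for the diet in COPD mice. For COPD against PBS mice on the control diet the log2 fold change with 1 library left out ran over Hspa1a -1.40 to 2.38, Hspa1b -1.42 to 2.40, Hspa8 -0.16 to 0.66, Hsph1 -0.61 to 0.64, Hsp90aa1 -0.24 to 0.15, Dnajb1 -0.21 to 0.92, Hspb1 -0.91 to 0.85, Cirbp -0.097 to 0.23 and Rbm3 -0.11 to 0.17. For COPD against PBS mice on the TJ-41 diet the log2 fold change with 1 library left out ran over Hspa1a -3.22 to 0.68, Hspa1b -3.10 to 0.76, Hspa8 -0.69 to 0.079, Hspe1 -0.77 to 0.097 and Rbm3 -0.047 to 0.47. Over both diets the log2 fold change with 1 library left out ran over Hspa1a -1.84 to 1.06, Hspa1b -1.80 to 1.05, Hspa8 -0.25 to 0.19, Dnajb1 -0.49 to 0.20, Hspb1 -0.63 to 0.25, Hspe1 -0.064 to 0.45 and Rbm3 -0.013 to 0.24. For the TJ-41 diet in PBS mice the log2 fold change with 1 library left out ran over Hspa1a -1.30 to 2.60, Hspa1b -1.52 to 2.47, Hspa8 -0.27 to 0.50, Hsph1 -0.17 to 1.68, Dnajb1 -0.21 to 1.00, Hspb1 -0.50 to 0.14, Hspe1 -0.32 to 0.54 and Cirbp -0.38 to 0.19. For the TJ-41 diet in COPD mice the log2 fold change with 1 library left out ran over Hspa1a -2.98 to 0.78, Hspa1b -3.02 to 0.66 and Hspb1 -1.35 to 0.41. For the difference of the diet effects the log2 fold change with 1 library left out ran over Hspb1 -1.20 to 0.57 and Rbm3 -0.069 to 0.45. The other 5 turns were 0.013 for Hsp90aa1 and 0.044 for Hspa8 (COPD mice on the control diet and over both diets), 0.20 for Hspb1 and 0.017 for Cirbp (diet in PBS mice) under the loess for GC content and length, which covered 99.9% of the tested genes, and -0.017 for Rbm3 (COPD mice on the control diet) with library size alone. The causes were not tested.

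Over all genes, the replicate differences of the groups correlated at -0.234 to 0.108, so the replicate numbers were not taken as pairs. That measure does not cover an order shared by a few genes. Replicate 2 was higher in each group for Hspa1a, Hspa1b, Hspa8, Hsph1, Hsp90aa1 and Dnajb1. With the replicate number as a block (replicate block) 0 of the 10 genes were called in each of the 6 comparisons, and the whole table gave 21, 18, 74, 0, 0 and 0 calls against 25, 16, 91, 0, 1 and 0. For COPD mice on the TJ-41 diet the block moved Hspa1a from -2.32 to -1.30 and Hsph1 from -1.75 to -1.51. Whole-table calls changed most with all genes of at least 1 count kept (147, 89, 278, 0, 2 and 6), with DESeq2 (171, 125, 245, 10, 12 and 17), with only the compared groups fitted (248 for COPD mice on the TJ-41 diet and 5 for the diet in PBS mice) and with 1 library left out (3 to 1343, 2 to 168, 15 to 873, 0 to 0, 0 to 728 and 0 to 14). The loess gave 28 against 16 for COPD mice on the TJ-41 diet. The lowest count of Hspa1a or Hspa1b in a library was 44, far above the floor of 3 counts.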

Other observations

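Per1, a clock gene that also responds quickly to stress, is given here as a value picked after it was seen. It was at 41.7 and 78.5 CPM in control-fed PBS mice, 21.5 and 84.0 CPM in TJ-41-fed PBS mice, 97.5 and 218.9 CPM in control-fed COPD mice and 98.2 and 115.5 CPM in TJ-41-fed COPD mice, so that replicate 2 was the higher library in each group, as for Hspa1a and Hspa1b. Bag3, an HSP70 cochaperone picked in the same way, was at 55.8 and 62.8, 49.9 and 61.3, 40.2 and 98.0, and 49.5 and 54.0 CPM. Markers of red cells summed to 2735 and 873.6 CPM in control-fed PBS mice and to 1941 and 3755 CPM in control-fed COPD mice, and those of heart muscle to 253 to 679 CPM over the 8 libraries.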
